A study of Mus musculus with 20 samples.

Results

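The genes described are 8 CC chemokines, small secreted proteins that draw white blood cells along a gradient: Ccl2, Ccl3, Ccl4, Ccl6, Ccl7, Ccl9, Ccl17 and Ccl22. They were taken by symbol from the deposited expression table, which lists all 8 among its 13225 genes and holds 4 further CC ligands, Ccl5, Ccl12, Ccl25 and Ccl27a. The RNA came from alveolar macrophages, the resident phagocytes of the air spaces, sorted by flow cytometry as cells with CD45, SiglecF and CD11c on their surface. Each of 4 groups held 5 mice, with 1 poly-A RNA library per mouse. The groups were miR-155 knockout mice (KO) of the strain B6.Cg-Mir155tm1.1Rsky/J after 4 weeks of cigarette smoke, wild-type C57BL/6 mice (WT) after 4 weeks of smoke, KO mice after 4 weeks of air, and WT mice after 4 weeks of air. Which stretch of the Mir155 locus the KO strain lacks, in which cells it is lost, and the age and sex of the mice are not stated in the labels.

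CC chemokines act through G protein-coupled receptors on leukocytes, and many of these receptors answer to several ligands. Ccl2 and Ccl7 are ligands of Ccr2, the receptor that brings monocytes from the blood into inflamed tissue. Ccl3 and Ccl4 are macrophage inflammatory proteins, of which Ccl3 binds Ccr1, Ccl6 and Ccl9 are rodent ligands of Ccr1, and Ccl17 and Ccl22 are the ligands of Ccr4, which guides helper and regulatory T cells. In the lung, macrophages are a known source of these ligands.

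The microRNA removed in the KO strain is shown because its seed, the bases 2 to 8 in capitals, sets which messages it can pair with. Its RefSeq entry lies at chr16:84714143-84714165 on the plus strand of GRCm38.p6.
mmu-miR-155-5p: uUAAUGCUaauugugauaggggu
The 7-base match to that seed, AGCATTA, was absent from the longest annotated 3' UTR (GENCODE M21) of all 8 CC chemokines, UTRs of 183 to 2465 bases. Of 11278 measured genes with a UTR, 1092 (9.68%) held it. The absence says only that these letters are not in those UTRs.

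Library totals ran from 6885680 to 11952088 reads. In 3 KO air libraries (IIIb2, IIIb3 and IIIb4) 1451 to 1645 genes had no read, against 259 to 1224 in the other 17, and the fits were also run without them. Calls of the chemokines and listed genes named here that were lost that way are marked. Only IIIa5 and IIIb1 then remained in KO air, and fewer genes were called over the whole table. With smoke in KO, 612 genes were then called higher and 608 lower, against 933 and 1118 with all libraries. The host transcript of miR-155, Mir155hg, had 8 reads in the 5 KO smoke mice, 48 in WT smoke, 25 in KO air and 2 in WT air, so it was present in both genotypes; a poly-A library does not measure the mature microRNA, and these reads do not check the deletion. Alveolar macrophage markers were abundant in every library, with 13 of 14 listed markers measured and a summed level of 54685 to 63218 CPM (reads of a gene per 1000000 reads of its library) in KO smoke, 54240 to 62068 in WT smoke, 52548 to 57670 in KO air and 53106 to 57014 in WT air. Lyz2 and Chil3, at 29783 and 17681 CPM on average in WT smoke, made up most of that sum, so it hides changes of single markers. Siglecf, Ear1, Ear2, Krt79 and Ptprc fell with smoke in both genotypes, while Marco and Car4 rose. Siglecf, the gene of a sorting marker, averaged 223 CPM in WT smoke, against 520 in WT air, and 223 in KO smoke, against 491 in KO air. Fewer cells of a type and less RNA per cell cannot be told apart in such pooled cells.

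Ccl6 made up nearly all CC chemokine RNA in these macrophages. It held 97.6% ± 0.546 of the reads of the 8 genes in KO smoke mice, 95.7% ± 1.58 in WT smoke, 96% ± 1.56 in KO air and 95.8% ± 0.886 in WT air (SD, n = 5 each). Summed, the 8 genes reached 7186 ± 423 CPM in KO smoke, 7997 ± 1087 in WT smoke, 4586 ± 734 in KO air and 4584 ± 294 in WT air. Per kilobase of exon, the scale on which genes can be compared, the order in WT smoke was Ccl6 at 4260 ± 542 CPM per kb, Ccl9 at 82.2 ± 43.4, Ccl3 at 31.6 ± 8.04, Ccl17 at 31.6 ± 9, Ccl22 at 17.1 ± 1.3, Ccl2 at 9.22 ± 7.22, Ccl7 at 7.32 ± 8.38 and Ccl4 at 5.03 ± 2.64. The ranges over mice were apart between Ccl6 and Ccl9 and between Ccl17 and Ccl22, while the other 5 pairs of neighbours in that order overlapped. In WT air the order was Ccl6 at 2446 ± 159, Ccl9 at 51.2 ± 13.2, Ccl3 at 19.4 ± 4.83, Ccl22 at 7.75 ± 0.962, Ccl17 at 7.64 ± 3.44, Ccl4 at 1.80 ± 1.64, Ccl2 at 0.0197 ± 0.0441 and Ccl7 at 0 in all 5 mice. Overlapping neighbours there were Ccl22 with Ccl17, Ccl4 with Ccl2, and Ccl2 with Ccl7. Ccl17 and Ccl22 were thus level in WT air and apart in WT smoke, and Ccl2 and Ccl7 stood above Ccl4 in WT smoke by their means but not beyond their spread. In the KO groups Ccl6, Ccl9 and Ccl3 also led, in that order.

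**Figure D1:**
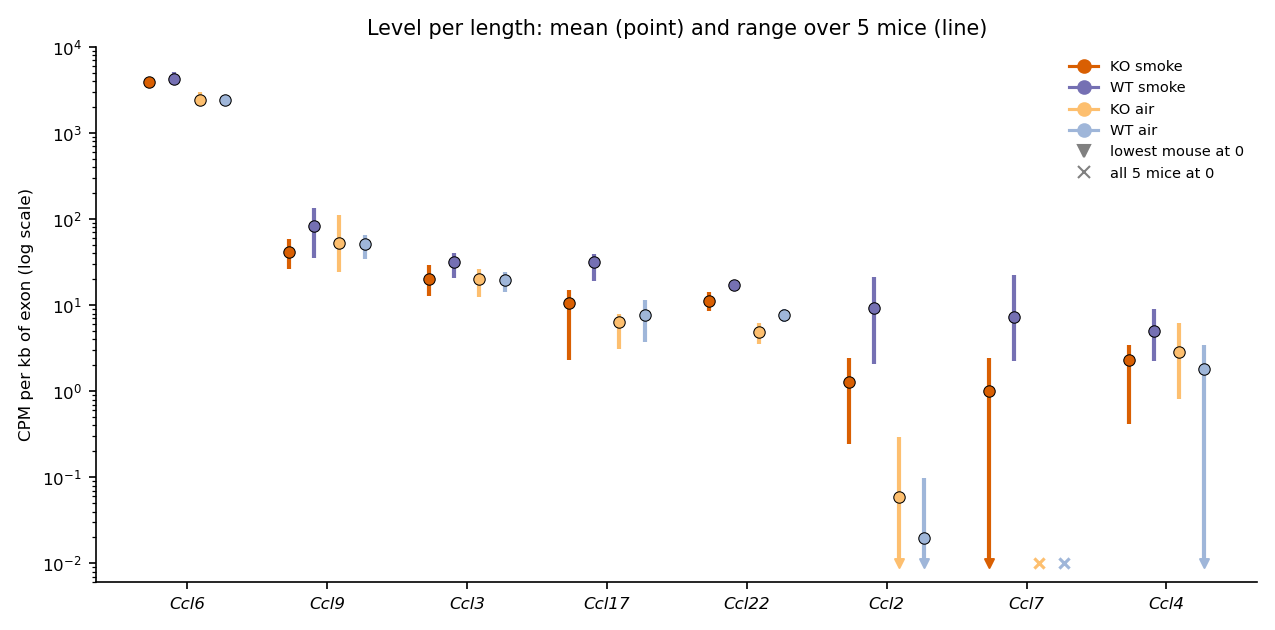
Level of each CC chemokine in CPM per kilobase of exon on a log scale, with the mean (point) and the range over 5 mice (line) in KO smoke, WT smoke, KO air and WT air; a triangle marks a lowest mouse at 0 and a cross 5 mice at 0. Ccl6 stood near 4260 in WT smoke while the other 7 genes stayed at or under a mean of 82.2.

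With smoke, 7 of the 8 CC chemokines rose in WT mice and 3 in KO mice (limma, adjusted p under 0.05 over all genes). In WT these were Ccl2, Ccl3, Ccl4, Ccl6, Ccl7, Ccl17 and Ccl22, beside 9.66% of all genes called higher and 12.8% called lower. In KO they were Ccl2, Ccl6 and Ccl22, beside 7.05% called higher and 8.45% called lower. The median log2 change of the 8 was 1.62 in WT, against -0.02 over all genes, and 0.61 in KO, against -0.01. Ccl7 had no read in air, and setting it to its lower bound could not move either median of the 8. Its change lay above the middle values both ways. Every WT smoke mouse lay above every WT air mouse for 5 of the 8, against 8.15% of all genes, and in KO for 2 of the 8, against 4.54%. The p-values measure the spread between mice of a group.

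**Figure D2:**
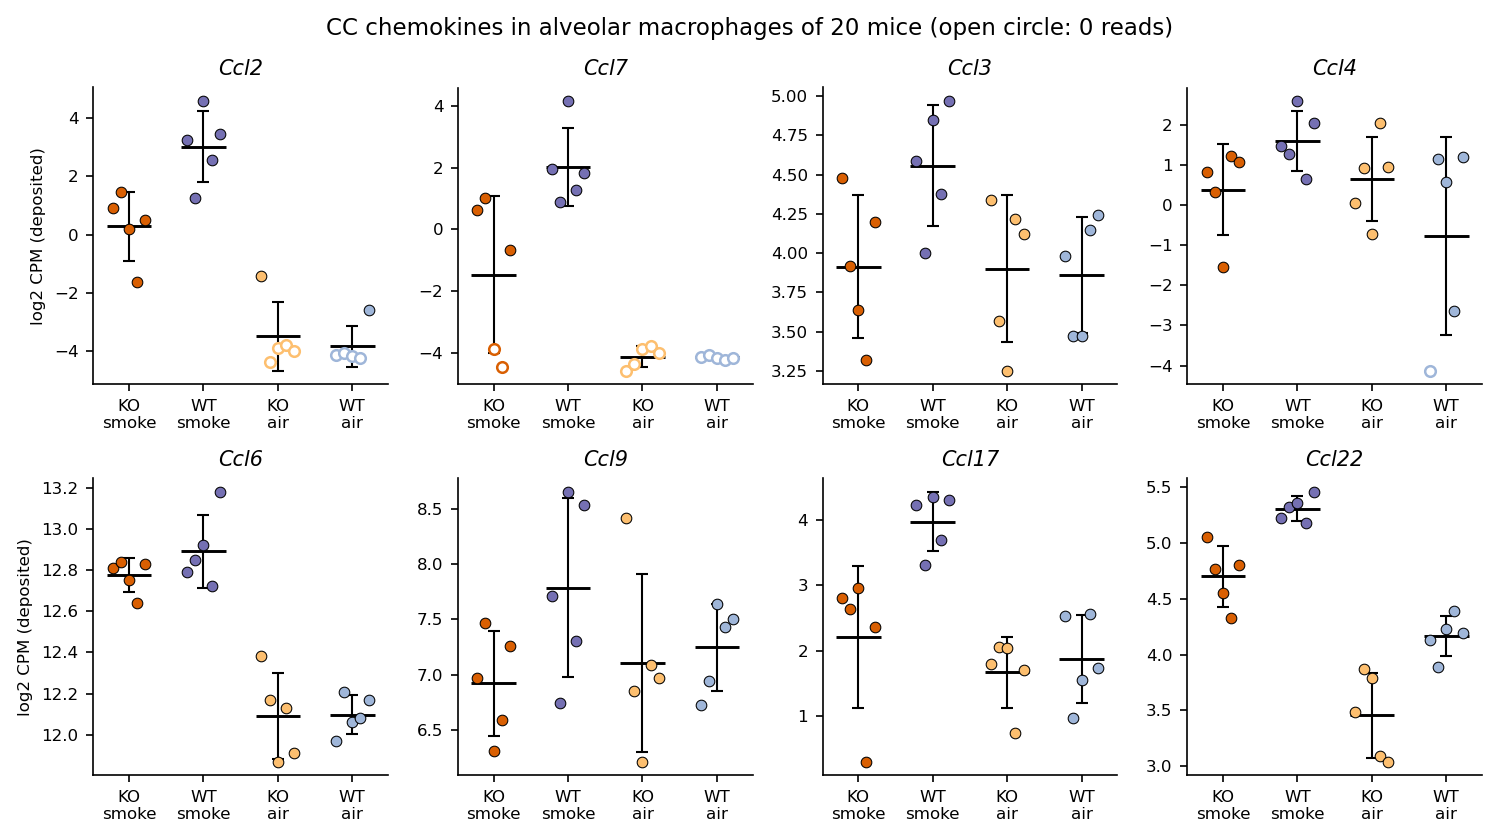
Deposited log2 CPM of the 8 CC chemokines in each of 20 mice, in the order KO smoke, WT smoke, KO air and WT air; bars give the mean and SD of 5 mice and open circles mark 0 reads. Ccl2, Ccl6, Ccl7, Ccl17 and Ccl22 had all 5 WT smoke mice above all 5 WT air mice.

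The Ccr2 ligands Ccl2 and Ccl7 were close to silent in air and present in smoke. Ccl2, the main monocyte attractant (gene at chr11:82035571-82037453, plus strand, 3 exons), stood at 24, 10.8, 9.49, 5.9 and 2.34 CPM in the 5 WT smoke mice, against 0.112 CPM, a single read, in 1 WT air mouse and 0 in the other 4. In KO smoke mice it stood at 2.74, 1.84, 1.36, 1.09 and 0.275 CPM, against 0.335 CPM in 1 KO air mouse and 0 in the other 4. The smoke and air mice did not overlap in WT and overlapped in KO, where the lowest smoke mouse, IVb2, lay under the highest air mouse, IIIa5. In WT the 498 smoke reads against 1 air read gave a ratio of 461 (exact binomial 95% interval 82.4 to 18257, counting error only), and without that air mouse, Ib4, at least 123-fold. In KO the ratio was 15.9, from 64 reads against 4. The log2 change in limma was 6.85 ± 0.80 in WT (SE, adjusted p 1.86e-07) and 3.79 ± 0.80 in KO (adjusted p 0.00109). For so few reads the fitted change depends on the 0.5 reads added to each count: with 1 CPM added instead it was 3.19 in WT and 1.13 in KO, both still called, and with voom weights the KO call was lost (adjusted p 0.0839).

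Ccl7 lies 8.3 kb from Ccl2 on the same strand (chr11:82045712-82047525) and encodes a second monocyte attractant. It stood at 17.8, 3.86, 3.53, 2.36 and 1.78 CPM in the WT smoke mice, against 0 reads in all 5 WT air mice. KO smoke mice had 1.97, 1.49 and 0.566 CPM in 3 mice and 0 in 2, against 0 reads in all 5 KO air mice. All WT smoke mice were thus above air, and 2 of the KO smoke mice were not. Counted against a floor of 3 reads over the air group, Ccl7 was at least 84.3-fold higher with smoke in WT and at least 11.9-fold higher in KO. Mouse IIb1 held 57.9% of the WT reads, and without it the bound was 43.6-fold; without IVa4, which held 50% of the KO reads, the KO bound was 7.48-fold. Limma called the WT change (6.17 ± 0.98 log2, adjusted p 2.43e-05, 2.38 with 1 CPM added) and not the KO change (2.66 ± 0.98, adjusted p 0.0657), which was called without IVa5 (0.0243), without IVb2 (0.0156) and with array weights (0.02).

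Within each smoke group, Ccl2 moved mouse by mouse with the complement C1q chains, which are listed markers of monocytes and interstitial macrophages. The sum of C1qa, C1qb and C1qc was 14.2, 9.29, 5.89, 0.682 and 0.459 CPM in KO smoke mice IVa4, IVa2, IVb4, IVa5 and IVb2. In WT smoke mice it was 129 CPM in IIb1, 43.9 in IIb3, 35 in IIa1, 22.2 in IIb2 and 7.58 in IIa5. In both smoke groups this was also the order of the mice by Ccl2. By Ccl7 the order was the same except that IIa1 stood above IIb3 in WT and that IVa5 and IVb2 were both at 0 in KO. By Ccl17 the order was the same in WT and not in KO, where IVa5 was the highest. In air the sum was 0 to 3.1 CPM in KO and 0 to 0.479 CPM in WT, and C1qa and Ly6c2 had no read in any WT air mouse. The shared order did not extend to KO air. There IIIb4 and IIIb3, at 3.1 and 2.76 CPM of C1q, had no Ccl2 read. Their C1q sums were above those of KO smoke mice IVa5 and IVb2, which had Ccl2 reads. Mouse IIIa5, with 4 Ccl2 reads, stood at 0.837 CPM of C1q. The C1q chains were picked after their values were seen, and their part in the chemokine result was not tested.

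**Figure D3:**
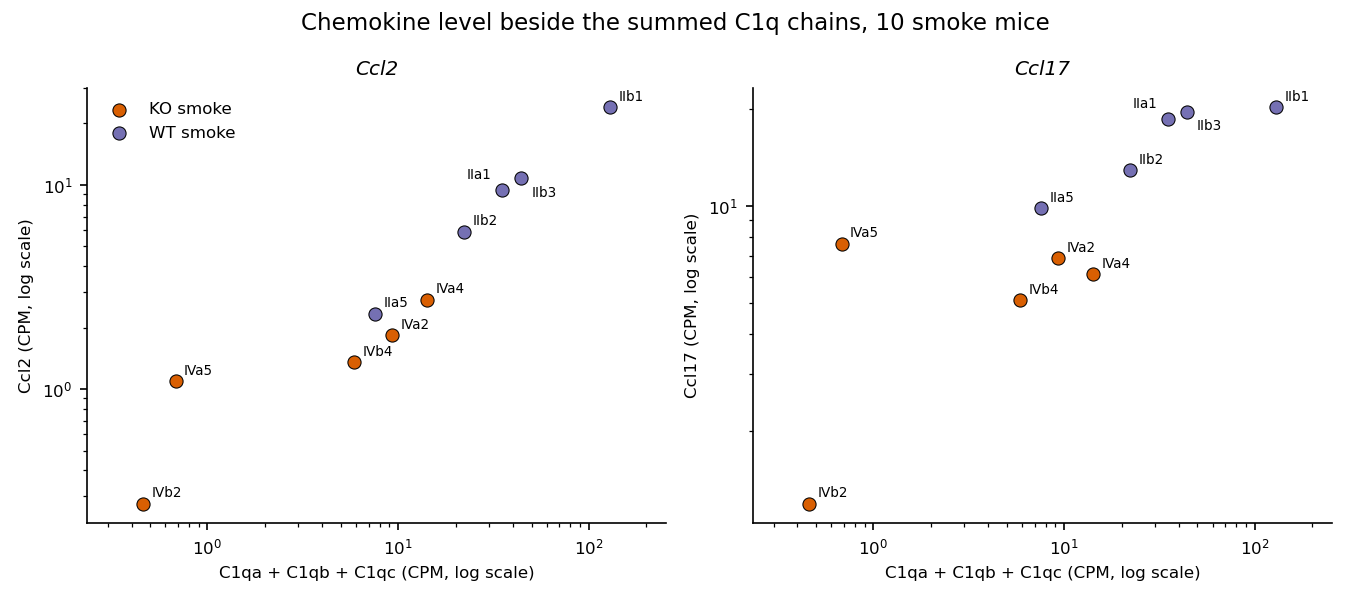
CPM of Ccl2 (left) and Ccl17 (right) beside the summed CPM of C1qa, C1qb and C1qc in the 5 KO smoke and 5 WT smoke mice, log scales on both axes, with the code of each mouse. For Ccl2 the 5 mice of each group kept 1 order on both axes, from IIa5 (2.34 and 7.58 CPM) to IIb1 (24 and 129 CPM) in WT.

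Of the whole monocyte and interstitial macrophage list, 14 of 14 markers were measured. With smoke C1qa, C1qb and C1qc rose in WT, and Cd14, Fcgr4 and Csf1r fell. In KO Itgam rose, a call lost without the 3 KO air libraries (adjusted p 0.0817), and Ccr2, Cd14, Apoe and Csf1r fell. The WT call of Csf1r was lost without Ib1 (0.0642), Ib2 (0.0742) or IIa5 (0.0808). The summed level of the list was 544 to 910 CPM in WT smoke, against 706 to 857 in WT air, and 555 to 682 CPM in KO smoke, against 757 to 985 in KO air. Most of that sum was Csf1r, at 398 CPM on average in WT smoke, 494 in WT air, 390 in KO smoke and 520 in KO air. The sum thus hides changes of low markers such as the C1q chains. In smoke, Apoe alone of the list was called between genotypes, lower in KO (-1.19 ± 0.24 log2, adjusted p 0.00754, or 0.0738 with no mean trend and 0.0547 with a robust variance prior). The part of these cells in the Ccl2 and Ccl7 results was not tested.

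The Ccr4 ligands lie 58.8 kb apart on chromosome 8, Ccl22 at chr8:94745590-94751699 and Ccl17 at chr8:94810453-94812036, both on the plus strand. Their promoters, 250 bases before to 50 after the RefSeq start site, are shown because the 2 genes moved together from mouse to mouse, with matches to the searched motifs in capitals.
Ccl17 promoter, chr8:94810203-94810502, plus strand, GRCm38.p6: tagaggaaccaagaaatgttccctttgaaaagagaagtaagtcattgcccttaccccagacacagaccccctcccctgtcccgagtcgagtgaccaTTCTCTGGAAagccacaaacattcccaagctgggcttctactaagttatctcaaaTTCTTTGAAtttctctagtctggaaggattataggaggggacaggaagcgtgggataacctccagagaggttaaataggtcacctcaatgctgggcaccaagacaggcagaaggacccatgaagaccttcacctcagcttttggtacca
Ccl22 promoter, chr8:94745434-94745733, plus strand, GRCm38.p6: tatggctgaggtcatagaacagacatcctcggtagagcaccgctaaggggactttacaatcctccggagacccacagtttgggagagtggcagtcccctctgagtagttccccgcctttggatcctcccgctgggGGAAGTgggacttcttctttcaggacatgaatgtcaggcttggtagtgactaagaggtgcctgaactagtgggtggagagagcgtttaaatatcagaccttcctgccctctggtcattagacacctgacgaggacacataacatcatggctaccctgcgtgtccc
The Ccl17 window held the STAT6 consensus, TTC and GAA with any 4 bases between them, from position -154, a motif in 6.95% of 32851 RefSeq promoters, and the STAT5 motif TTCNNNGAA from -99, in 8.3%. The Ccl22 window held neither and had the ETS motif GGAAGT at -115, in 23.8%. Matches on both strands of the kappa-B consensus (8.46% of promoters), the AP-1 motif TGANTCA (7.81%) and the antioxidant response motif TGACNNNGC (12.4%) were found in neither window, which says only that these letters are not there.

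Ccl17 rose in WT with smoke and was the 1 CC chemokine called between genotypes. It stood at 20.2, 19.6, 18.6, 12.9 and 9.81 CPM in WT smoke mice, against 5.86, 5.71, 3.26, 2.89 and 1.92 CPM in WT air. KO smoke mice had 7.63, 6.89, 6.13, 5.09 and 1.19 CPM, against 4.08, 4.04, 3.43, 3.22 and 1.6 CPM in KO air. The WT smoke group lay above all 3 other groups without overlap, while KO smoke mouse IVb2 lay under every KO air mouse and the other 4 above. The pooled ratio of smoke to air was 4.12 in WT (2.10 ± 0.43 log2, adjusted p 0.00058) and 1.52 in KO (0.54 ± 0.43, adjusted p 0.447). In smoke the KO level was 0.313 of the WT level (-1.76 ± 0.43 log2, adjusted p 0.028, lower in 5 of 5 mice). That genotype call was lost with no mean trend in the variance prior (0.076) and without WT smoke mice IIa1 (0.0824), IIb1 (0.108), IIb2 (0.057) or IIb3 (0.0776), or KO smoke mice IVb2 (0.102) or IVb4 (0.0519).

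Ccl22 rose with smoke in both genotypes by a like ratio. It stood at 43.8, 41.1, 39.8, 37.3 and 36.2 CPM in WT smoke mice, against 20.9, 18.8, 18.2, 17.5 and 14.7 CPM in WT air. KO smoke mice had 33.2, 27.7, 27.2, 23.3 and 20 CPM, against 14.6, 13.7, 11.1, 8.42 and 8.17 CPM in KO air. All 4 pairs of groups that differ in 1 factor were free of overlap, with KO below WT and smoke above air. The pooled ratio of smoke to air was 2.19 in WT (1.14 ± 0.17 log2, adjusted p 1.22e-05) and 2.29 in KO (1.24 ± 0.17, adjusted p 5.53e-06). The KO to WT difference missed the threshold in smoke (-0.61 ± 0.17 log2, ratio 0.659, adjusted p 0.0677) and in air (-0.71 ± 0.17 log2, ratio 0.631, adjusted p 0.0521). It passed in smoke without the 3 KO air libraries (0.0168) and without IIIb3 (0.0479), IIIb4 (0.0468) or IVa2 (0.0454), and in air without IIIa5 (0.0455), IIIb1 (0.0239) or IIIb2 (0.0277). Of 12 settings that left out no single library, it passed in 4 in smoke and in 2 in air.

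Of 11 genes of the IL-4 and GM-CSF axis, a known route to Ccl17 and Ccl22, Il4ra and Il13ra1, which encode receptor chains for IL-4 and IL-13, rose with smoke in WT, the Il4ra call (adjusted p 0.0231) being lost without Ia4 (0.0673), Ib2 (0.0696), IIa1 (0.0583) or IIb1 (0.108). Kdm6b, a histone demethylase gene, Csf2rb2 and Stat5b fell, and in KO Kdm6b and Csf2rb2 fell. The KO call of Kdm6b was lost without the 3 KO air libraries (adjusted p 0.0596), and the Csf2rb2 calls were lost without any 1 of 5 libraries in WT (0.0585 to 0.0713) and of 7 in KO (0.0584 to 0.132). Kdm6b averaged 29.7 ± 3.78 CPM in WT smoke, against 48.7 ± 4.66 in WT air, and 36.1 ± 8.20 CPM in KO smoke, against 53.1 ± 7.93 in KO air. Stat6, the transcription factor of IL-4 signalling, averaged 306 CPM in WT smoke, against 343 in WT air (-0.16 log2, adjusted p 0.0818). None of the 11 was called between genotypes in smoke or in air. Dendritic cells also make Ccl17 and Ccl22, and 3 of 8 measured markers of that list, Ccr7, Cd24a and Fscn1, rose in WT, 2, Flt3 and Cd24a, in KO, and 0 fell; Flt3 was not called without IVa5 (0.0558) or without the 3 KO air libraries (0.325). Over all genes 9.66% were called higher in WT and 7.05% in KO. The summed level of the list was 224 to 379 CPM in WT smoke, against 142 to 171 in WT air, and 199 to 232 CPM in KO smoke, against 125 to 174 in KO air. Most of that sum was Cd24a, at 245 CPM on average in WT smoke, 137 in WT air, 185 in KO smoke and 125 in KO air. Flt3 and Zbtb46 averaged at most 1.55 CPM in any group, and Clec9a and Batf3 were not called with smoke. The part of dendritic cells in the Ccl17 and Ccl22 results was not tested.

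Ccl3 and Ccl4, the macrophage inflammatory proteins, lie 13.2 kb apart on chromosome 11 on opposite strands (chr11:83647844-83649355 and chr11:83662584-83664683) and rose modestly in WT. Ccl3 stood at 31.3, 28.8, 24.1, 20.8 and 15.9 CPM in WT smoke mice, against 18.9, 17.7, 15.8, 11 and 11 CPM in WT air. In KO smoke mice it was at 22.3, 18.3, 15.1, 12.4 and 9.91 CPM, against 20.2, 18.6, 17.3, 11.9 and 9.43 CPM in KO air. Only WT smoke mouse IIa5 fell within the WT air range, and the KO groups covered nearly the same range. The pooled ratio was 1.62 in WT (0.70 ± 0.24 log2, adjusted p 0.039) and 0.982 in KO (0.01 ± 0.24, adjusted p 0.984, 95% interval -0.49 to 0.51).

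Ccl4 had few reads, 0 to 53 in a mouse. It stood at 5.96, 4.06, 2.72, 2.34 and 1.5 CPM in WT smoke mice, against 2.25, 2.15, 1.44, 0.107 and 0 CPM in WT air, and the groups overlapped. KO smoke mice had 2.29, 2.04, 1.72, 1.2 and 0.273 CPM, against 4.07, 1.86, 1.85, 1 and 0.539 CPM in KO air, also overlapping. The pooled ratio was 2.8 in WT (2.37 ± 0.84 log2, 1.06 with 1 CPM added, adjusted p 0.0414) and 0.905 in KO (-0.27 ± 0.84, adjusted p 0.885). The WT calls of both genes were lost with no mean trend (0.0686 for Ccl3 and 0.0776 for Ccl4). The Ccl3 call was also lost without Ia3 (0.0523), Ia4 (0.108), Ib1 (0.107), IIa1 (0.0705), IIb1 (0.103) or IIb3 (0.113), and the Ccl4 call without Ia3 (0.168), Ib2 (0.127), IIa1 (0.066), IIa5 (0.053), IIb1 (0.109) or IIb3 (0.0832).

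The Ccr1 ligands Ccl6 and Ccl9 are neighbours 9.2 kb apart on the minus strand of chromosome 11 (chr11:83587882-83593087 and chr11:83572919-83578636). Their promoters are shown because they share a stretch around the start site, in capitals: 59 of 74 aligned columns were identical (79.7%), from -59 to 15 in Ccl6 and from -18 to 49 in Ccl9.
Ccl6 promoter, chr11:83593038-83593337, minus strand, GRCm38.p6: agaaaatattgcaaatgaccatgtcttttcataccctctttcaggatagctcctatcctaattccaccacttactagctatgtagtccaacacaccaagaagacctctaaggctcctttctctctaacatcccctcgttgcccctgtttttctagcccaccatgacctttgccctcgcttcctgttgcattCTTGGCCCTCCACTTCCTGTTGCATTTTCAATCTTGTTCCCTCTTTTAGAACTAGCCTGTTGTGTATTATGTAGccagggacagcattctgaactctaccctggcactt
Ccl9 promoter, chr11:83578587-83578886, minus strand, GRCm38.p6: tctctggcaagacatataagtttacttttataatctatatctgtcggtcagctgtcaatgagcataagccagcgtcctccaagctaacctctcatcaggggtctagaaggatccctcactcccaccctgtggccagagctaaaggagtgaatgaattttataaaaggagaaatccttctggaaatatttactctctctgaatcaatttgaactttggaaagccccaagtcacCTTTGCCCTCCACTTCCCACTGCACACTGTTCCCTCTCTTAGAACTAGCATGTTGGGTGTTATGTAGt
Of the searched motifs the Ccl6 window held the ETS motif at -48, and the Ccl9 window held the kappa-B consensus at -35, the AP-1 motif at -53 and the ETS motif at -7. The Ccl3 promoter, the only other one of the 8 genes in the RefSeq table, held the ETS motif at -209. The Ccl6 and Ccl9 transcripts were 75.5% identical over 290 bases. The Ccl9 transcript was 97.02% identical to Sdhaf2 over 134 bases, so reads from that stretch are uncertain.

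Ccl6, the dominant CC chemokine of the mouse macrophages, rose in both genotypes. It stood at 9254, 7774, 7377, 7065 and 6763 CPM in WT smoke mice, against 4731, 4611, 4318, 4283 and 4009 CPM in WT air. The KO smoke mice stood at 7308, 7282, 7172, 6881 and 6398 CPM, against 5313, 4597, 4488, 3842 and 3739 CPM in KO air. Smoke and air did not overlap in either genotype, and the 2 smoke groups overlapped. The pooled ratio was 1.74 in WT (0.79 ± 0.09 log2, adjusted p 1.76e-07) and 1.55 in KO (0.68 ± 0.09, adjusted p 3.39e-06). Quantile normalization gave 0.34 in WT (adjusted p 0.012) and 0.42 in KO (adjusted p 0.00321).

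Ccl9 passed the test in no comparison. It stood at 405, 373, 209, 157 and 107 CPM in WT smoke mice, against 199, 182, 172, 122 and 105 CPM in WT air. In KO smoke mice it was at 177, 153, 126, 96.6 and 79.1 CPM, against 342, 137, 125, 115 and 74.1 CPM in KO air. The WT smoke mice IIb1 and IIb3 and the KO air mouse IIIa5 stood well above the rest of their groups. The pooled ratio was 1.58 in WT (0.55 ± 0.31 log2, adjusted p 0.237) and 0.728 in KO (-0.19 ± 0.31, adjusted p 0.754), and without IIIa5 the KO ratio was 1.12.

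Between genotypes in smoke, all 8 CC chemokines had a log2 difference below 0, with a median of -1.04 against -0.02 over all genes. The 8 signs are not independent, since the chemokines varied together among mice of 1 group. Under quantile normalization that of Ccl6 was 0.01. Limma called 1 of the 8, Ccl17, against 0.688% of all genes called lower (91 genes) and 0.892% called higher (118). With median centring of the libraries 69 were lower and 197 higher. The KO values lay all below the WT values for 2 of the 8, Ccl17 and Ccl22, against 2.54% of all genes. Differences that missed the threshold were -3.49 ± 0.98 log2 for Ccl7 (adjusted p 0.0651), -2.73 ± 0.80 for Ccl2 (0.0802), -0.87 ± 0.31 for Ccl9 (0.173), -0.65 ± 0.24 for Ccl3 (0.2), -1.22 ± 0.84 for Ccl4 (0.596) and -0.12 ± 0.09 for Ccl6 (0.655). KO and WT smoke mice overlapped for Ccl2, where IVa4 at 2.74 CPM stood above IIa5 at 2.34 CPM, and for Ccl7, where IVa4 at 1.97 CPM stood above IIa5 at 1.78 CPM. In pooled reads the KO level was 0.137 of the WT level for Ccl2 and 0.141 for Ccl7, and for Ccl7 0.272 without IIb1 and 0.0883 without IVa4. Leaving out 1 library changed 3 of these results: Ccl2 was called without IIa5 (0.0329), Ccl7 without IIa5 (0.0481), IVa2 (0.0417) or IVa4 (0.0408), and Ccl9 without IIa5 (0.0413). The choice of method changed them too. Of 11 settings that left out no single library, Ccl2 was called in 6 and Ccl7 in 3. Without the 3 KO air libraries Ccl2 was called too (0.049), and both Ccl2 and Ccl7 were called with 1 CPM added (0.00129 and 0.00986) and under quantile normalization (0.0362 and 0.0392).

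In air, limma called 0 of the 8, against 0.265% of all genes called lower. At an unadjusted p under 0.05 stood 1 of the 8, Ccl22, against 11.6% of all genes. Ccl22 was also the 1 gene of the 8 with all KO air mice below all WT air mice, against 1.13% of all genes. The median difference of the 8 was 0.01, against -0.04 over all genes. Ccl2 and Ccl7 had 1 and 0 reads in all of WT air, so a lower level in KO air was not detectable at this depth.

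The smoke response itself was compared between genotypes by an interaction term. Limma called 0 of the 8 CC chemokines (4 at an unadjusted p under 0.05), and 0 of all 13225 genes (0%), of which 1302 (9.84%) had an unadjusted p under 0.05. The fitted difference, KO minus WT, was below 0 for 7 of the 8, with a median of -1.15 against 0.02 over all genes. Here too the 8 values are not independent. At an unadjusted p under 0.05 stood Ccl2 (-3.07 log2, 95% interval -5.38 to -0.76, adjusted p 0.345), Ccl7 (-3.52, -6.36 to -0.67, 0.377), Ccl17 (-1.56, -2.81 to -0.30, 0.377) and Ccl4 (-2.64, -5.07 to -0.20, 0.46). Ccl22 had a difference of 0.10, with an interval of -0.40 to 0.60, and Ccl6 of -0.11, from -0.38 to 0.16. A call in WT and none in KO is therefore not shown to be a difference in response for any of the 8. The smoke contrasts share the spread of 1 fit, and each has its own air group.

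**Figure D4:**
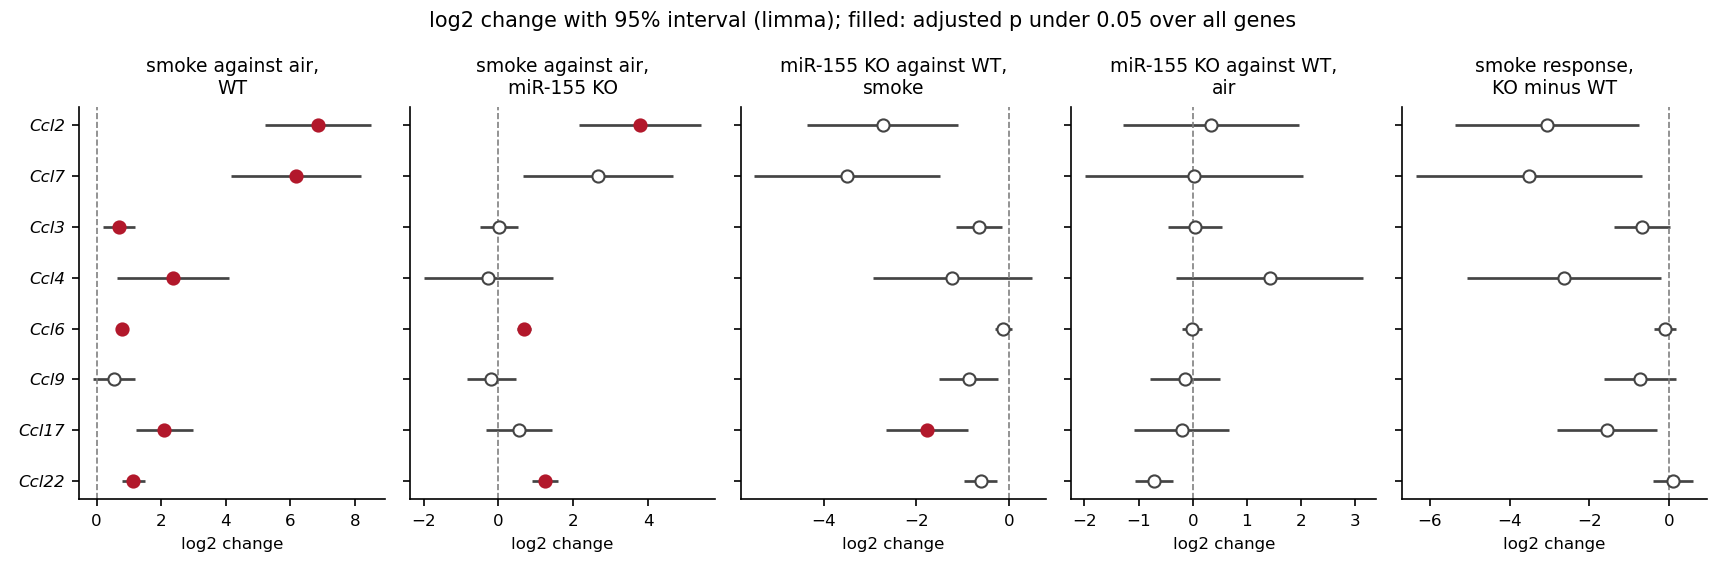
Log2 change of the 8 CC chemokines with its 95% interval in limma for 5 comparisons, from left to right smoke against air in WT and in KO, KO against WT in smoke and in air, and the smoke response in KO minus that in WT. Filled points passed an adjusted p under 0.05 over all genes: 7 in WT smoke, 3 in KO smoke, 1 between genotypes in smoke and 0 in the last 2 comparisons.

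Receptors of these ligands changed in part. Of 11 listed CC receptors 7 were measured, and Ccr1, the receptor of Ccl3, Ccl6 and Ccl9, and Ccr7, the lymph node homing receptor, rose with smoke in WT. Ccr1 averaged 134 ± 14.0 CPM in WT smoke, against 109 ± 14.5 in WT air (0.29 ± 0.10 log2, adjusted p 0.0372), a call lost without Ia3 (0.0784), Ia4 (0.108), Ib2 (0.0991), IIa1 (0.102), IIb1 (0.109) or IIb2 (0.0572). Ccr7 averaged 9.26 ± 3.88 CPM in WT smoke, against 1.04 ± 0.718 in WT air (3.29 ± 1.03 log2, adjusted p 0.02, or 0.061 without Ia4). In KO no receptor was called higher with smoke. Ccr2, the receptor of Ccl2 and Ccl7, fell and averaged 4.06 ± 1.70 CPM in KO smoke, against 8.56 ± 1.51 in KO air (-1.16 ± 0.33 log2, adjusted p 0.0144). That call was lost without the 3 KO air libraries (0.112) and without IVa5 (0.0517). Ccr4, the receptor of Ccl17 and Ccl22, had no read in KO smoke, KO air or WT air and averaged 0.416 CPM in WT smoke (adjusted p 0.0865). Ccrl2, the 1 atypical receptor measured of 6 listed, was called in no comparison.

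Downstream of the receptors, more genes fell than rose with smoke. Of 20 measured signalling genes 1 rose and 7 fell in WT, and 2 rose and 7 fell in KO. Over all genes, too, more fell than rose, 12.8% against 9.66% in WT and 8.45% against 7.05% in KO. The receptor kinase genes Grk2, Grk3, Grk5 and Grk6, whose products desensitise chemokine receptors, fell in both genotypes. Grk5 averaged 31.9 ± 3.41 CPM in WT smoke, against 66.2 ± 6.93 in WT air (-1.06 ± 0.13 log2, adjusted p 3.74e-07), and 41.9 ± 3.87 CPM in KO smoke, against 69.2 ± 17.2 in KO air (-0.69 ± 0.13, adjusted p 0.000246). Plcb3, a phospholipase gene, also fell in both, in KO not without the 3 KO air libraries (adjusted p 0.111). Gnb1 was called lower in both, Dock2 in WT and Rgs2 in KO, but the calls were lost without any 1 of 4 libraries for Gnb1 in WT (0.0515 to 0.0925), 2 for Gnb1 in KO (0.0504 and 0.0735), 6 for Dock2 (0.0569 to 0.112) and 10 for Rgs2 (0.0504 to 0.146). Without the 3 KO air libraries Gnb1 (0.148) and Rgs2 (0.468) were not called in KO either. Plcb2, of the same family, rose in both, at 542 ± 40.2 CPM in WT smoke, against 456 ± 25.7 in WT air, and at 559 ± 41.5 CPM in KO smoke, against 446 ± 42.2 in KO air. In KO Rgs1, a brake on chemokine signalling, rose as well, at 53.3 ± 20 CPM in KO smoke, against 17.0 ± 15.8 in KO air (1.93 ± 0.35 log2, adjusted p 0.000203). Between genotypes Grk3 was higher in KO in smoke (0.38 ± 0.09 log2, adjusted p 0.0234), a call lost without IIa1 (0.0861), IIb1 (0.0664), IVa4 (0.0844), IVb2 (0.0569) or IVb4 (0.076). Rgs1 was lower in KO in air (-1.55 ± 0.35 log2, adjusted p 0.0407), a call lost without any 1 of 8 libraries, Ia3, Ia4, Ib4, IIa1, IIIb1, IIIb2, IIIb3 and IIIb4 (0.0522 to 0.148), or without the 3 KO air libraries together (0.639).

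Genes of the NF-kB, AP-1 and IRF routes, through which CC chemokine genes can be induced, fell or were not called with smoke. The list of 18, all measured, includes the NF-kB inhibitors Nfkbia, Nfkbib, Nfkbie and Tnfaip3, of which Nfkbia and Tnfaip3 fell in WT and Nfkbia, Nfkbie and Tnfaip3 in KO. Of the 18, 0 rose and 12 fell in WT, and 0 rose and 10 fell in KO (9 to 13 and 9 to 11 with each library left out, and 7 in KO without the 3 KO air libraries). Beside this list and the decay list below, 12.8% of all genes were called lower in WT and 8.45% in KO. None of the 18 was called between genotypes in smoke or in air. The members of the 18 with the smallest p were Ikbkg, Nfkb1, Tnfaip3 and Ikbkb in WT and Irf5, Irf1, Tnfaip3 and Nfkbia in KO. Nfkb1 averaged 159 ± 12.5 CPM in WT smoke, against 231 ± 14.2 in WT air (-0.54 ± 0.08 log2, adjusted p 1.88e-05), and Tnfaip3, a feedback inhibitor of NF-kB, 57.1 ± 4.87 CPM in WT smoke, against 103 ± 34.4 in WT air (-0.78 ± 0.18, adjusted p 0.00148). Irf5 averaged 57.1 ± 4.07 CPM in KO smoke, against 98.9 ± 8.19 in KO air (-0.79 ± 0.08 log2, adjusted p 3.8e-08). Of 7 genes that act on the decay of such messages, 3 fell in WT, Zfp36, Zfp36l2 and Khsrp, and 1, Zfp36, in KO. Zfp36, which encodes tristetraprolin, a factor that speeds the decay of AU-rich messages, averaged 152 ± 24.6 CPM in WT smoke, against 190 ± 19.8 in WT air, and 116 ± 12.4 CPM in KO smoke, against 180 ± 39.1 in KO air. The 3 WT decay calls were all lost under quantile normalization, and those of Zfp36l2 and Khsrp each without any 1 of 4 libraries (0.0724 to 0.0816 and 0.0596 to 0.105). The WT call of Zfp36 (adjusted p 0.0441) was also lost without Ia3 (0.115), Ia4 (0.0727), Ib1 (0.0959), Ib4 (0.0683), IIa5 (0.164), IIb2 (0.0912), IVa4 (0.0503) or IVb4 (0.0502). These lists measure RNA of the regulators and not their activity.

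Among proteases of the list, which includes enzymes known to trim CC chemokines, more rose than fell. Of 9 measured, 5 rose and 2 fell in WT, and 4 rose and 0 fell in KO. Over all genes 9.66% were called higher and 12.8% lower in WT, and 7.05% higher and 8.45% lower in KO. Mmp12, the macrophage elastase, averaged 192 ± 119 CPM in WT smoke, against 7.27 ± 1.97 in WT air (4.50 ± 0.38 log2, adjusted p 6.15e-10), and 52.2 ± 25.8 CPM in KO smoke, against 6.61 ± 3.43 in KO air (2.91 ± 0.38, adjusted p 2.21e-06). In smoke it was lower in KO (-1.81 ± 0.38 log2, adjusted p 0.00923, or 0.0586 without IIb1). Mmp14 was lower in KO in smoke as well (-3.41 ± 0.83 log2, adjusted p 0.027), a call lost without IIa1 (0.061), IIb1 (0.133), IIb3 (0.0582), IVa5 (0.0777) or IVb2 (0.0829). Ctsk, Mmp8 and Ctsd rose in both genotypes, though the changes of Ctsd, 0.63 log2 in WT and 0.53 in KO, were 0.21 (adjusted p 0.0564) and 0.15 (0.234) under quantile normalization, while Adam10 and Adam17 fell in WT.

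Markers of other cells moved with these groups. Beside the counts below, 9.66% of all genes were called higher and 12.8% lower with smoke in WT, and 7.05% higher and 8.45% lower in KO. Neutrophil markers had 3 of 5 measured higher and 1 lower in WT (summed 159 to 357 CPM in WT smoke, against 90.3 to 129 in WT air), and 3 higher and 1 lower in KO (139 to 314 CPM in KO smoke, against 86.1 to 134 in KO air), with S100a9 at 0 reads in both air groups. Mmp8, which is also in the protease list, made up most of the smoke sums, averaging 188 CPM in WT smoke and 158 in KO smoke. T and NK cell markers, with Cd4 and Il7r alone measured of 8, rose in WT, Cd4 not without Ia3 (0.0645), Ia4 (0.0626), Ib1 (0.064), IIb1 (0.0969), IIb2 (0.0876) or IIb3 (0.0737) (summed 7.47 to 41.2 CPM in WT smoke, against 0.571 to 1.71 in WT air). In KO Il7r rose, but not without the 3 KO air libraries (adjusted p 0.169) (both genes summed 0.642 to 6.08 CPM in KO smoke, against 0 to 1.26 in KO air). Of 6 listed eosinophil markers 2 were measured, and in both genotypes Ear6 rose and Siglece fell (summed 119 to 161 CPM in KO smoke, against 71.2 to 123 in KO air, and 126 to 193 CPM in WT smoke, against 72 to 82.2 in WT air). Epx, Prg2, Il5ra and Ccr3 were not measured, so the list cannot show a change in eosinophils. Epithelial markers had 3 of 7 higher and 2 lower in WT, and 1 higher and 2 lower in KO (167 to 207 CPM in KO smoke, against 192 to 277 in KO air, and 179 to 229 CPM in WT smoke, against 182 to 246 in WT air), and endothelial and stromal markers had 1 of 2 higher in WT and 0 in KO. No B cell marker was measured. Of the alveolar macrophage markers 2 rose and 6 fell in WT, and 3 rose and 5 fell in KO, where the rises of Marco and Fabp4 were not called without the 3 KO air libraries (adjusted p 0.255 and 0.181). The part of these cells in the chemokine results was not tested.

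The chemokines varied together among mice of 1 group. In WT smoke, mouse IIb1 was the highest for 5 of the 8, IIb3 for the other 3, IIa5 the lowest for 5 and IIb2 for the other 3. In KO smoke, IVb2 was the lowest for 6 of the 8, for Ccl7 level with IVa5 at 0, and the highest for Ccl4, and IVa4 the highest for 4. Over all 20 mice, with the group means removed, 26 of 28 pairs had a Pearson r above 0, and 6 pairs passed a permutation test within groups (100000 resamples, 2-sided, adjusted over the 28 pairs). These were Ccl2 with Ccl9 (r 0.78, rho 0.72, p 0.00076, adjusted 0.0213), Ccl6 with Ccl9 (r 0.71, rho 0.62, adjusted p 0.0218), Ccl2 with Ccl3 (r 0.69, rho 0.71, adjusted p 0.0218), Ccl3 with Ccl9 (r 0.68, rho 0.67, adjusted p 0.0218), Ccl17 with Ccl22 (r 0.62, rho 0.55, adjusted p 0.0218) and Ccl2 with Ccl7 (r 0.60, rho 0.45, adjusted p 0.0228). By rank the adjusted permutation p of the last 2 pairs was 0.0803 and 0.2. Without the 2 mice farthest from the median of the first gene the r of these 6 pairs was 0.73, 0.59, 0.66, 0.57, 0.53 and 0.52, and 0 of the 28 pairs passed with those 2 fewer mice. Without the 3 KO air libraries 3 pairs passed. For Ccl2 and Ccl7 the air mice add little, since 4 of 5 in each air group had no Ccl2 read and their values follow the library total. In the 10 smoke mice alone, a choice made after seeing the data, r was 0.83 for Ccl2 with Ccl7, 0.82 for Ccl2 with Ccl17, 0.80 for Ccl2 with Ccl9 and 0.67 for Ccl17 with Ccl22. Ccl4 had an r to Ccl17 of -0.54 over 20 mice (adjusted permutation p 0.0948) and of -0.27 in smoke. Its r to each of the others was above 0 in smoke, from 0.18 with Ccl2 to 0.62 with Ccl9.

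**Figure D5:**
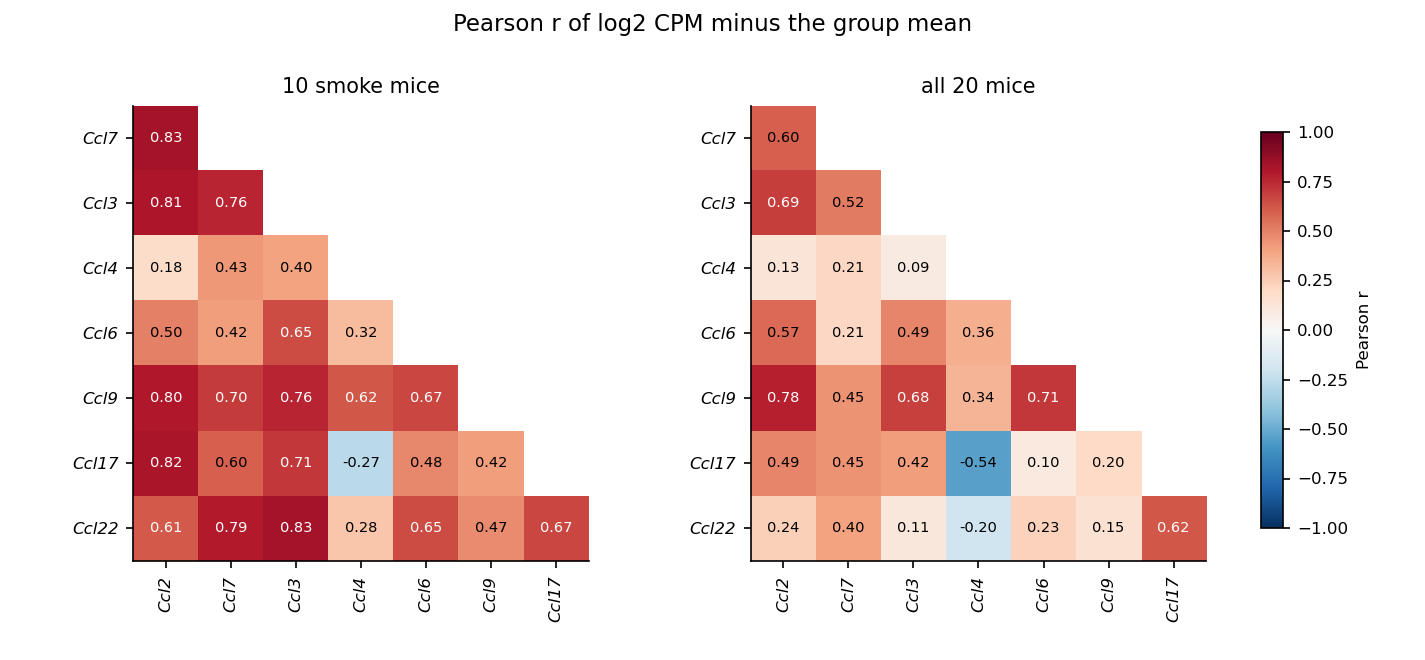
Pearson r between pairs of CC chemokines, from log2 CPM minus the group mean, in the 10 smoke mice (left) and in all 20 mice (right), on a color scale from -1 to 1. The values of Ccl2 with Ccl3, Ccl7, Ccl9 and Ccl17 were 0.80 or higher in the smoke mice, while pairs with Ccl4 were at most 0.43 in both panels except Ccl4 with Ccl9 in the smoke mice (0.62).

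Among the 11019 genes whose log2 CPM averaged 0 or more, those named here were among the 3 most like each CC chemokine over the 20 mice, by Pearson r with the group means removed. For Ccl2 they were Ctsb, Mmp12 and Ctsz (all r 0.82), for Ccl9 Mmp12 (0.86), Socs3 and C3 (0.82 each), and for Ccl6 Inhba (0.85), Tmem35b (0.79) and Mocs2 (0.76). For Ccl3 they were Lat2 (0.89), P2rx4 (0.86) and Abcf2 (0.84), for Ccl4 Gmppb (0.81), Pls3 (0.78) and Fbxl5 (0.73), and for Ccl7 Zfp408 (0.79) and Gm17999 (0.78). For Ccl17 they were Ctdnep1 (0.86), Kcnk5 (0.84) and Eif2ak4 (0.82), and for Ccl22 Gm340 (0.86), Cacnb3 and Echs1 (0.83 each). Several of these genes changed with smoke as well: Mmp12 is described above, and Ctsb, a lysosomal protease gene, had a change of 0.66 log2 in WT (adjusted p 7.18e-08) and 0.50 in KO (adjusted p 8.02e-06). Inhba, which encodes an activin chain, had 2.34 in WT (adjusted p 0.000414) and 1.3 in KO (adjusted p 0.0577). Others went the other way. C3 fell by -0.72 log2 in WT (adjusted p 0.000744) and -0.61 in KO (adjusted p 0.00573), and Gm17999 by -2.89 in KO (adjusted p 0.0114). With 20 mice and 11019 genes the highest values of r are chosen extremes and carry no test.

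The other 4 CC ligands of the table were called in none of the 5 comparisons. Ccl12, a mouse Ccr2 ligand 54.3 kb from Ccl7, had 15 reads in WT smoke, against 1 in WT air (ratio 13.9, exact binomial interval 2.14 to 585), and 1 read in KO smoke, against 27 in KO air, of which 16 and 11 were in IIIb2 and IIIb3. Ccl5, a ligand of Ccr1, had 31 reads in WT smoke and 31 in WT air, and 5 in KO smoke, against 30 in KO air, of which 21 were in IIIa5. Ccl25 averaged 5.87 ± 0.728 CPM in WT smoke, against 5.48 ± 1.58 in WT air, and 5.98 ± 1.26 CPM in KO smoke, against 8.96 ± 2.99 in KO air. Its exons overlap those of Elavl1 on the opposite strand by 538 bases, and whether the counting used strand is not given, so reads of the 2 genes cannot be told apart there. Ccl27a had 38 to 75 reads in a group and has near-identical copies in the genome, such as Ccl27b, so its counts are uncertain.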

How the data were processed

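Poly-A RNA libraries of sorted mouse alveolar macrophages, prepared from 25 ng of RNA per the labels' protocols, were compared over 4 groups of 5 mice. Per the submitters' processing notes, the reads were aligned with STAR 2.6.0c, limma was used, and the build is GRCm38.p6; for the counting tool, the annotation and any filter on low counts, the sources used here give nothing. The authors deposited log2 CPM, and these follow the voom formula, with 0.5 reads added to each gene and 1 to the library total: 100.0% of the values gave back whole reads within 0.001. CPM, pooled ratios and floors of 3 reads (0.251 to 0.436 CPM in a library) were computed from those reads, and their intervals and floors cover counting error only.

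The deposited log2 CPM of all 13225 genes and 20 libraries were fitted in limma 3.58.1 (R 4.3.3) as 1 mean per group, with an empirical Bayes variance prior that follows the mean level. P-values were adjusted over all genes (Benjamini-Hochberg), and a call is an adjusted p under 0.05. Pairs of chemokines were compared over mice in Python 3.11.15 (numpy 2.4.6, pandas 2.3.3, scipy 1.17.1). Transcripts were compared with blastn 2.17.0 and the GENCODE M21 annotation; mature microRNA and promoter sequences are from RefSeq tables of GRCm38.p6, and 5 of the 8 chemokines had a promoter there. The fitting step was tested on simulated data. The alternatives were another variance prior, a filter on low values, another pseudocount, other normalizations, the compared groups only, the letter of the mouse code as a covariate, array or voom weights, leaving out 3 KO air libraries together, and leaving out each library in turn; the smoke mice alone, pooled ratios with each mouse left out and the ending of the mouse code as a replicate block were added after seeing the data.

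All 8 chemokines and the other CC ligands of the table were named, with up to 4 called members of each list by the smallest p in a smoke contrast and the 3 genes most like each chemokine. Further list members were named after their values were seen, to show a receptor, a regulator or a difference between genotypes. The members and lists were chosen with earlier results of these data known. A few genes that this rule names are not reported here.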

Additional observations from a re-analysis of the deposited data

Results flagged for a closer look

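In 4 of 32 groups of 5 values, 8 chemokines in 4 groups of mice, 1 mouse lay farther from its nearest neighbour, as a share of the group's range, than Dixon's 95% critical value of 0.71. For normally distributed values, chance alone gives about 1 such group in 20. That rate does not apply to Ccl2 in air, where the mice with no read differ only by their library total. Ccl17 in KO smoke had a log2 CPM of 0.31 in mouse IVb2 (13 reads), against 2.36 to 2.95 in the other 4 mice (45 to 60 reads). Ccl17 in KO air was 0.74 in mouse IIIb3 (11 reads), against 1.71 to 2.05 in the others (26 to 42 reads). Ccl2 in KO air was -1.41 in mouse IIIa5 (4 reads), where the others had no read and values of -4.36 to -3.78 that follow the library total. Ccl2 in WT air was -2.57 in mouse Ib4 (1 read), where the others had no read and values of -4.23 to -4.06.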

How the results depend on the processing

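The WT smoke calls of Ccl2, Ccl6, Ccl7, Ccl17 and Ccl22 held with each of the 20 libraries left out and under every other setting that tested them, and no result changed direction with a call. The number of the 8 chemokines called with smoke in WT, 7, ranged from 5 to 7 with each library left out and was 4 of 5 tested with genes of a mean log2 CPM of at least 1, which removes Ccl2, Ccl4 and Ccl7. In KO it was 3, and 3 to 4 with each library left out. Between genotypes in smoke the count of 1 was 0 with no mean trend, 3 with log2 of CPM plus 1, with quantile normalization, with the compared groups only, with array weights and without the 3 KO air libraries, and 4 with voom weights; it ranged from 0 to 4 with each library left out. Between genotypes in air the count of 0 was 1 with the robust variance prior and with the filter, and 0 to 1 with each library left out. The interaction called 0 of the 8 in every setting. Of 28 pairs of chemokines, 6 passed, against 3 without the 3 KO air libraries and 0 without the 2 mice farthest from the median. The cause of these shifts was not tested. The ending of the mouse code recurs across groups (9 endings), and the labels do not say that it marks a shared litter, cage or day. Over 17 pairs of mice with the same ending, the deviations from the group means had correlations over genes of -0.07 to 0.06, against -0.08 to 0.11 in 133 other pairs. Of 17 mice, 1 correlated best with a mouse of its own ending. These correlations showed no pairing by ending but cannot decide it, since an effect on few genes would hardly move them. A fit with the ending as a replicate block, added after seeing the data, leaves 8 residual degrees of freedom. With that block, calls over all genes were 1527 with smoke in WT (2968 without the block), 1069 with smoke in KO (2051), 28 between genotypes in smoke (209) and 16 in air (55). Of the 8 chemokines it called 5 in WT, 3 in KO, and 0 between genotypes in smoke, in air and in the interaction. Of the listed genes called without it, it did not call 27 of 67 in WT, 16 of 52 in KO, 7 of 7 between genotypes in smoke and 2 of 2 in air. Depth limits Ccl2, Ccl4 and Ccl7, whose values in air rest on 0 to 28 reads a mouse.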
